A study of Mus musculus with 16 samples.

Results

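The genes described here encode receptors for circulating and local vasoactive substances, the endothelin and adrenomedullin peptides, the enzyme that matures endothelin, and the partner proteins of the adrenomedullin receptor. They were chosen by name from the deposited expression table, as a list of 47 symbols sorted by ligand, of 54532 genes in all. All 47 were in the table, each once. Expression was measured by RNA-seq in the aortas, freed of adventitia, of male Apoe-/- mice of strain C57BL/6j, aged 8 to 12 weeks. Apoe-/- mice lack apolipoprotein E and carry high plasma cholesterol, and both groups had this deletion. Osmotic pumps delivered saline (8 libraries) or angiotensin II, here Ang II, at 1000 ng/kg/min (8 libraries) over 7 days. Neither pooling nor the mouse behind a library is stated in the labels, so the p-values reflect only how these 16 samples vary. The comparison asks which of these genes differed in level between aortas given Ang II, itself a constrictor hormone, and aortas given saline.

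Arterial tone is set by smooth muscle cells in the media, which contract when receptors that couple to Gq raise cell calcium and relax when receptors that couple to Gs raise cyclic AMP. Noradrenaline, endothelin 1, serotonin, vasopressin, ATP, UDP and neuropeptide Y are classical constrictor ligands. Adrenomedullin, the calcitonin gene-related peptide (CGRP) and adenosine are classical relaxing ligands. Many receptors also sit on the endothelium, the inner lining, where bradykinin, acetylcholine, ATP and thrombin release nitric oxide, and sphingosine 1-phosphate (S1P) and adrenomedullin keep the barrier closed.

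The depth was 14606860 to 17590093 reads per library with saline and 15779118 to 19988723 with Ang II, recovered from the FPKM (fragments per kilobase of transcript, scaled to library size). Smooth muscle markers summed to 9464 to 15820 FPKM with saline and 6807 to 11390 FPKM with Ang II, and 4 of 10 were called lower, among them Myh11 (the test and its threshold are given with the first counts of members). Of 14 endothelial markers 1 was called higher and 3 lower, and they summed to 749 to 1877 FPKM and 287 to 1677 FPKM. Of 13 macrophage and monocyte markers 4 were called higher (26.8 to 739 and 76.4 to 777 FPKM). Of 10 tested adipocyte markers 3 were called lower, and the 14 on the list summed to 82.7 to 424 and 59.8 to 192 FPKM. Saline 8, Saline 7 and Saline 2 stood apart from the other libraries on the first principal component, and values without them are given where they end or make a call or turn a direction. In whole tissue, fewer cells of a type and less RNA per cell cannot be told apart.

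With Ang II, 10 of the 34 members tested changed. Adm (adrenomedullin), Adra2a, Ramp2, Adra1d, Ramp1, Ednra and Adora1 fell, and Htr1b, F2r and Adra1b rose. The other 24 did not pass the test, and 13 members with a mean under 0.5 FPKM were not tested. The test was limma on log2(FPKM + 1) over 15007 genes, with a Benjamini-Hochberg adjusted p under 0.05 as the threshold. The 3 higher and 7 lower members were 8.82% and 20.6% of those tested, against 9.54% higher and 24.9% lower among all genes. In all, 29.4% of tested members were called, against 34.5% of all genes, a share near the background. Over all genes, 1431 were called higher and 3741 lower, which became 2235 and 2113 with median ratio scaling and 2270 and 2374 with quantile normalization. The members then gave 4 higher with 6 lower, and 4 higher with 5 lower. The median log2 fold change of the tested members was -0.23, where that of all tested genes was -0.12 (-0.006 after median ratio scaling). For 3 members, Adm, Ednra and Htr1b, the saline and Ang II libraries did not overlap (8.82% of those tested; 8.36% of all genes). All-above separation, that of Htr1b, was found for 2.74% of all genes, and all-below separation, that of Adm and Ednra, for 5.62%. Each fold change is of FPKM + 1 on a log2 scale, so changes of genes near 1 FPKM are understated.

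Among the members tested, the largest falls were those of Adm and Adra2a and the largest rises those of Htr1b and F2r. The 250 bases before the RefSeq start of each of these 4 genes are shown so that the letters of the region can be read beside the values. They come from RefSeq (GRCm38.p6), where 38 of the 47 members had an entry, and run 5′ to 3′ on the strand of the gene. Capitals mark matches to 6 motifs searched on both strands (TATAAA on the strand of the gene only). The motifs were AP-1 (TGANTCA), part of the cyclic AMP response element (TGACGT), the hypoxia core (ACGTG), the TEAD site (GGAATG), the CArG box and TATAAA.
Adm, chr7:110627407-110627656, plus strand: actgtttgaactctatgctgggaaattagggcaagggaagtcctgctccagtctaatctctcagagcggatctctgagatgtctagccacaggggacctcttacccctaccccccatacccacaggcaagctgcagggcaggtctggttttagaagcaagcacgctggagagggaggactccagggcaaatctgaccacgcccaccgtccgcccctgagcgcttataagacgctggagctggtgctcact
Adra2a, chr19:54045009-54045258, plus strand: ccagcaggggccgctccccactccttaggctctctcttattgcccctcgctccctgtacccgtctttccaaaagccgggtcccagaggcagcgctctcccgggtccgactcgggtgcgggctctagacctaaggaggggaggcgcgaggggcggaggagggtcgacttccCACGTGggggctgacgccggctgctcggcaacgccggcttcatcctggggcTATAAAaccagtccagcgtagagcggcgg
Htr1b, chr9:81633833-81634082, minus strand: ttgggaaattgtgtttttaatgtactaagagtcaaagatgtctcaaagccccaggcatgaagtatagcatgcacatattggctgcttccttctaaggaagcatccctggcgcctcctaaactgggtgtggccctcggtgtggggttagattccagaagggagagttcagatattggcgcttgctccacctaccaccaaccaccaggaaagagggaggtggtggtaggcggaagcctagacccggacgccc
F2r, chr13:95618467-95618716, minus strand: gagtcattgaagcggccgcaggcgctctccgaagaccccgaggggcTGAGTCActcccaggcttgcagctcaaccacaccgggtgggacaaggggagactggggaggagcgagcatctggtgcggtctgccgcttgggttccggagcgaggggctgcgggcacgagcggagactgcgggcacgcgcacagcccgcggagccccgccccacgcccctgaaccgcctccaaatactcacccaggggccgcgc
The window of Adra2a held the hypoxia core on both strands, overlapping, 80 and 79 bases before the start, and TATAAA 29 bases before it. The window of F2r held AP-1 letters 204 bases before the start. No match to the 6 motifs was in the windows of Adm and Htr1b. Over the members with an entry, AP-1 letters were in 15.8% of windows (6 of 38; 6.75% of 32851 windows in RefSeq) and the hypoxia core in 7.89% (16.6%). TGACGT was in 5.26% (6.47%), GGAATG in 10.5% (12.6%), TATAAA in 5.26% (7.59%) and the CArG box in none (1.47%). Of the 6 members with AP-1 letters, F2r and Adra1b rose and Adora1 fell. A match describes letters only, and no binding was measured here.

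The levels of the members spanned more than the changes did. Ece1, Ramp1 and Ramp2 had means of 176 ± 62.7, 175 ± 47.7 and 162 ± 64.4 FPKM with saline (mean ± SD, n = 8 throughout), and these did not differ beyond their spread. P2rx1, P2ry6, Adra1d, Npy1r and F2r followed, between 28.6 and 52.3 FPKM. Of the 47 members, 3 had a mean of at least 100 FPKM over the 16 libraries, 11 of 10 to 100, 13 of 1 to 10, 7 of 0.5 to 1 and 13 less than that. FPKM divides by a length, for most members the mean length of their annotated transcripts. For some genes that mean is far below the exon bases, as for Ramp2 (870 against 3301 bases) and Ece1 (1509 against 5300). For Adra1d both are 1899 bases. Levels, and shares of a summed level, can therefore be set between genes only roughly.

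**Figure D1:**
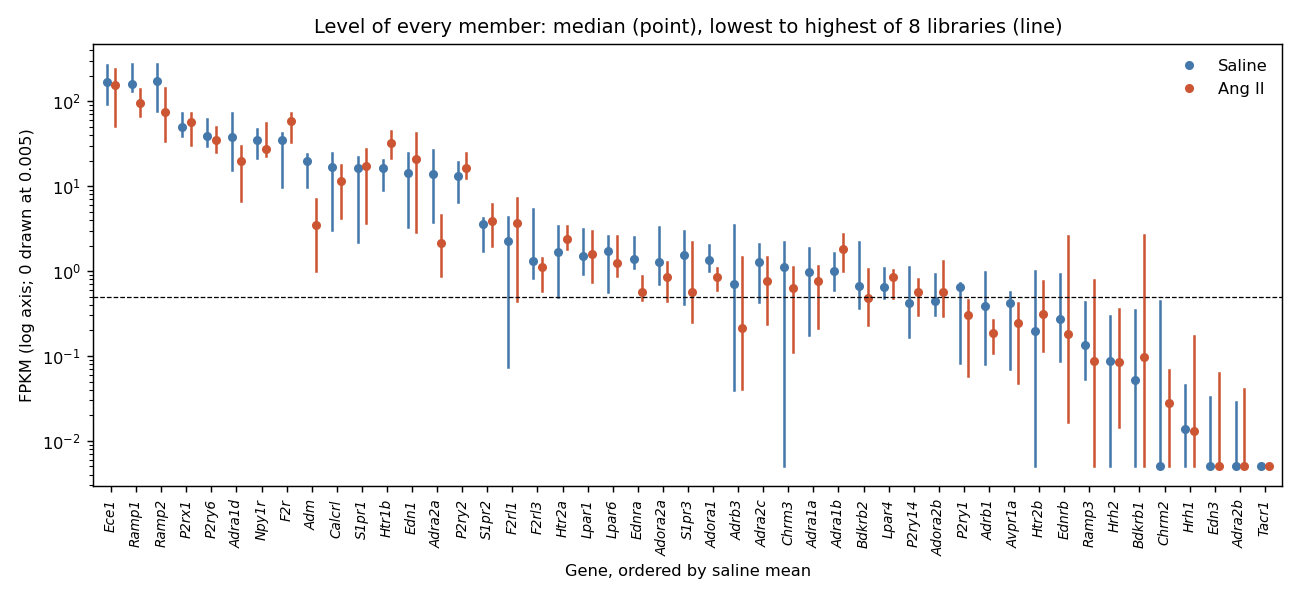
FPKM of each of the 47 members on a log axis, ordered by the saline mean; points are medians and lines run from the lowest to the highest of 8 libraries, with 0 drawn at 0.005 and the test's filter of 0.5 FPKM dashed. Ece1, Ramp1 and Ramp2 lie highest and Tacr1, at 0 in every library, lowest.

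**Figure D2:**
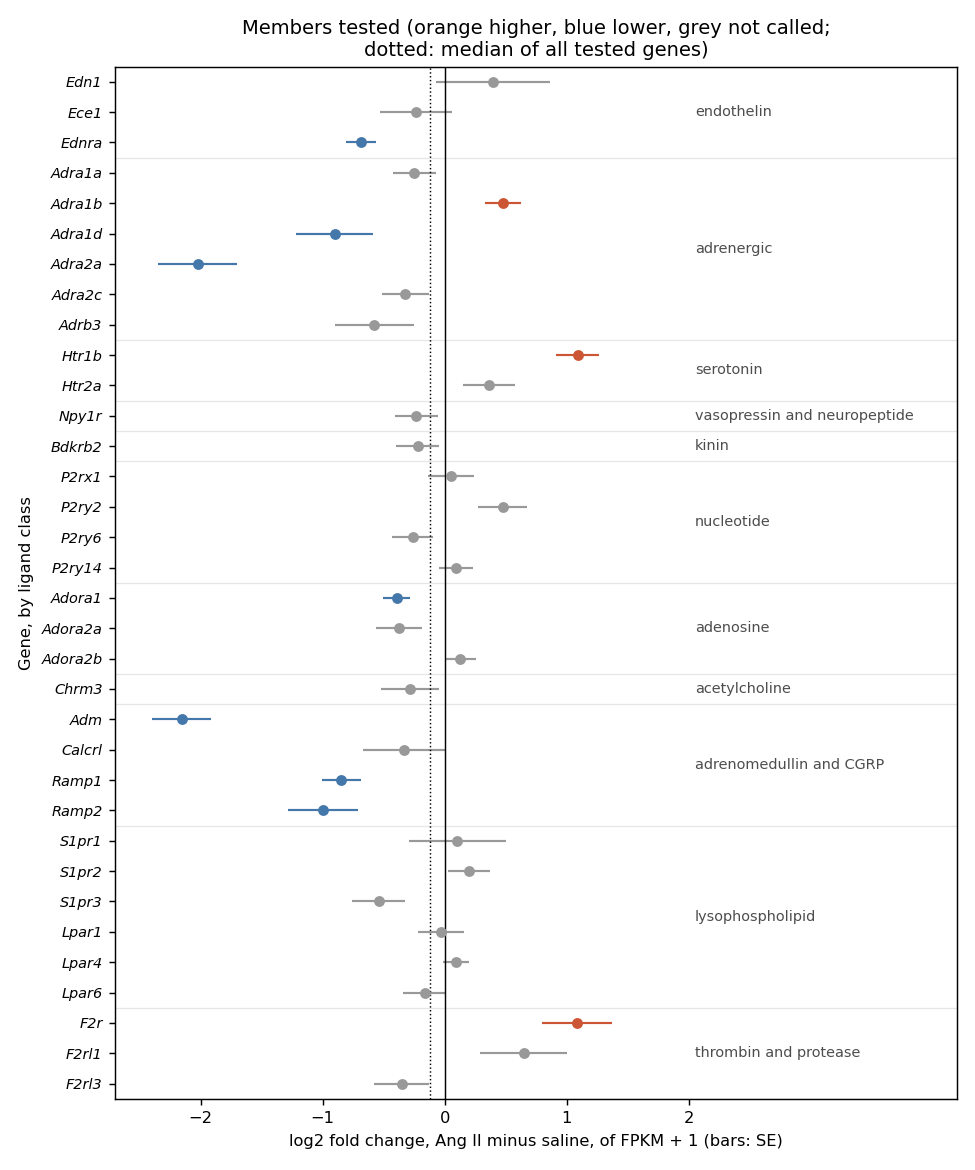
Log2 fold change (Ang II minus saline, of FPKM + 1) of the 34 members tested, by ligand class, with bars of 1 SE; orange members were called higher, blue lower and grey not called. The dotted line is the median of all tested genes, -0.12, and Adm and Adra2a lie farthest from it.

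In the endothelin class the receptor gene fell and the peptide did not pass the test. Ednra encodes the ETA receptor, which constricts smooth muscle (ENSMUSG00000031616, chromosome 8, 77663031 to 77724464, minus strand, GRCm38). It held 1.10 to 2.53 FPKM with saline (median 1.39) and 0.458 to 0.882 with Ang II (median 0.572). The Ang II range lay wholly under the saline range. For Ednra the log2 fold change was -0.69 (SE 0.12, limma adjusted p = 0.000539), and exact permutation (two-sided) returned p = 0.000155, the smallest that 12870 assignments allow. The gene had few reads, 63 to 128 per library with saline and 27 to 56 with Ang II. With a pseudocount of 0.1 its log2 fold change was -1.25, and with limma voom on the recovered reads -1.38.

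Edn1, the endothelin 1 precursor made mainly by endothelium, held 3.30 to 24.4 FPKM with saline (median 14.4) and 2.90 to 42.6 with Ang II (median 21.1). The groups overlapped, although 3 Ang II libraries exceeded the saline maximum. The log2 fold change was 0.40 (SE 0.47, limma adjusted p = 0.530), which turned to -0.14 without Saline 2, Saline 7 and Saline 8. With the endothelial marker score as a covariate it was 0.69 (adjusted p = 0.0343), the only call in 31 other settings. With the adipocyte score it was -0.30 (0.696). Ece1, the enzyme that cuts big endothelin to the active peptide, held 92.9 to 270 FPKM (median 170.4) and 51.9 to 240.5 FPKM (median 154), and its log2 fold change of -0.23 did not pass (limma adjusted p = 0.557). Ednrb, the ETB receptor, had 0.0867 to 0.922 FPKM with saline and 0.0166 to 2.56 with Ang II and was not tested; its highest value was that of Ang II 1. Edn3, a sister peptide, gave 1 read in all saline libraries together and 3 in all Ang II libraries.

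Among receptors for noradrenaline and adrenaline, Adra2a and Adra1d fell and Adra1b rose. Adra2a encodes the alpha-2A receptor, which couples to Gi (ENSMUSG00000033717, chromosome 19, 54045182 to 54048982, plus strand). It held 3.78 to 26.4 FPKM with saline (median 13.96) and 0.867 to 4.53 with Ang II (median 2.14). Only Saline 8 fell within the Ang II range, below Ang II 5 and Ang II 8. For Adra2a the log2 fold change was -2.03 (SE 0.33, limma adjusted p = 0.000195), a 4.07-fold lower level on that scale. It was between -2.55 and -1.85 over 31 other settings, with the call kept in all of them. Adra2c, another Gi-coupled alpha-2 receptor, held 1.35 ± 0.620 and 0.876 ± 0.503 FPKM and did not pass (log2 fold change -0.32, limma adjusted p = 0.205). Adra2b was near 0, with 2 reads over the saline and 3 over the Ang II libraries. Adra2a made up a median of 92.0% of the summed alpha-2 FPKM with saline (78.9% to 93.7%) and 70.4% with Ang II (53.6% to 90.4%).

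Of the alpha-1 receptors, which couple to Gq and mediate constriction by sympathetic nerves, Adra1d was by far the most expressed. It held 15.4 to 72.1 FPKM with saline (median 37.6) and 6.67 to 29.6 with Ang II (median 20.0; chromosome 2, 131545850 to 131562283, minus strand). Saline 2 and Saline 8 (15.9 and 15.4 FPKM) lay below 7 of the 8 Ang II libraries, and the other 6 saline libraries lay above all of them. The log2 fold change was -0.90 (SE 0.32, limma adjusted p = 0.0346). This call was lost without any 1 of Saline 3, Saline 5, Saline 6, Saline 7, Ang II 1, Ang II 3 or Ang II 8 (adjusted p up to 0.0664) and after median ratio scaling (0.0662) or quantile normalization (0.0660). It was also lost without the filter (0.0799), by the Wilcoxon rank-sum test (0.138) and with macrophage and monocyte score in the model (-0.62, 0.236). Of its exon bases 7.74% overlap the antisense gene Gm14285, which fell as well (log2 fold change -1.30), and whether strand was used in counting is not given in the sources used here.

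Adra1b held 0.602 to 1.63 FPKM with saline (median 1.01) and 1.00 to 2.76 with Ang II (median 1.83), and 5 of 8 Ang II libraries exceeded the whole saline range. For Adra1b the log2 fold change was 0.48 (SE 0.15, limma adjusted p = 0.0207), and 0.85 with voom on 29 to 142 reads per library. Without the filter on low values the call was lost (0.0538). Adra1a held 0.175 to 1.88 FPKM with saline (median 0.973) and 0.214 to 1.16 with Ang II (median 0.758), and did not pass (log2 fold change -0.25, limma adjusted p = 0.279). It was called lower without Saline 7 and Saline 8 (-0.41, 0.0489), without Saline 2 as well (-0.48, 0.0296) and with sample weights (0.0232). The share of Adra1b in the summed alpha-1 FPKM had a median of 2.33% with saline and 8.56% with Ang II, and that of Adra1d 95.1% and 88.5%, with overlapping ranges. The beta receptors, which couple to Gs, were low. Adrb1 held 0.486 ± 0.313 and 0.191 ± 0.0583 FPKM, under the filter; without the filter it had a limma adjusted p = 0.0790. Adrb3, the beta receptor of fat cells, ran from 0.0400 to 3.47 FPKM with saline and 0.0403 to 1.45 with Ang II. Its 4 highest values were those of Saline 2, Saline 6, Saline 8 and Ang II 8. Of these, Saline 2, Saline 6 and Saline 8 also held the highest summed adipocyte markers (270.1, 321 and 424 FPKM).

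**Figure D3:**
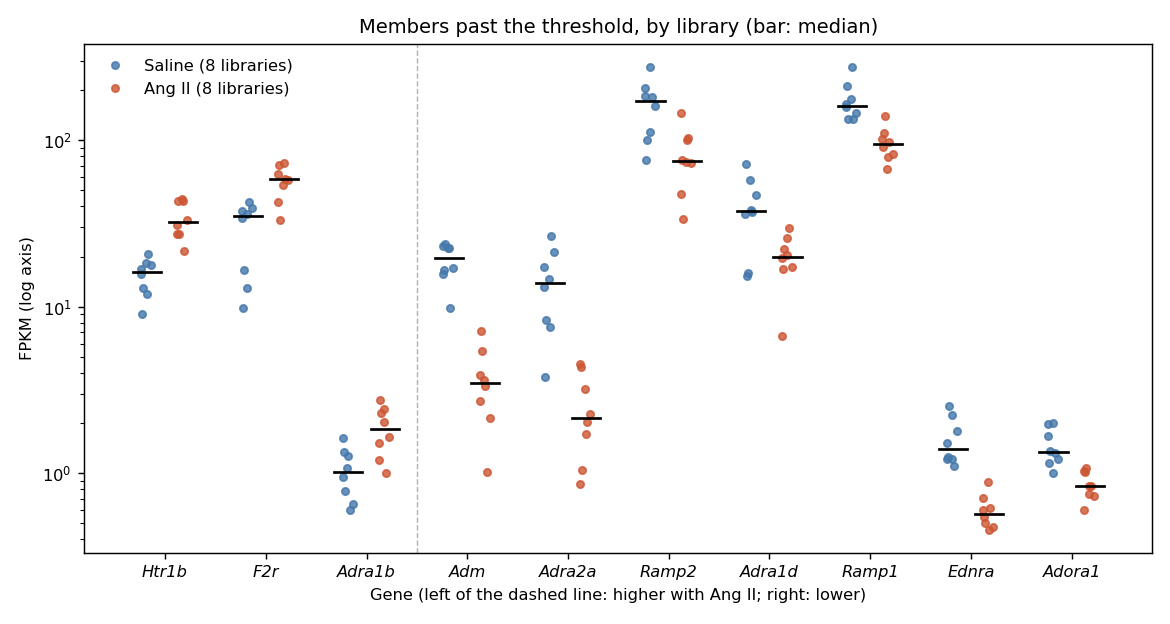
FPKM on a log axis of the 10 members past the threshold, with a point for each of 8 saline and 8 Ang II libraries and a bar at the median. Groups are apart for Htr1b, Adm and Ednra and overlap for the other 7.

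Htr1b, the Gi-coupled 5-HT1B serotonin receptor, which constricts some arteries, was the most expressed serotonin receptor and rose (ENSMUSG00000049511, chromosome 9, 81628291 to 81633828, minus strand). It held 9.10 to 20.6 FPKM with saline (median 16.3) and 21.6 to 44.5 with Ang II (median 32.1), so that the lowest Ang II value exceeded the highest saline value. For Htr1b the log2 fold change was 1.09 (SE 0.18, limma adjusted p = 0.000185), 2.13-fold, and the exact two-sided permutation p was 0.000155. It was called higher in all 31 other settings, with values of 0.86 to 1.23. An antisense gene, D430036J16Rik, covers 18.04% of its exon bases and held 1.21 ± 0.517 and 1.69 ± 0.367 FPKM (limma adjusted p = 0.104). Htr2a, the Gq-coupled 5-HT2A receptor and main constrictor receptor for serotonin in many arteries, held 0.491 to 3.43 FPKM with saline (median 1.66) and 1.83 to 3.397 with Ang II (median 2.37). Its log2 fold change of 0.36 did not pass (limma adjusted p = 0.198) and was -0.02 without Saline 2, Saline 7 and Saline 8. Htr2b stayed under the filter with 0.359 ± 0.359 and 0.350 ± 0.226 FPKM. Htr1b made up a median of 88.8% of the summed FPKM of these 3 receptors with saline and 92.4% with Ang II.

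In the adrenomedullin and CGRP class the peptide and both abundant partner proteins fell, 3 of 4 tested members, where 24.9% of all genes were called lower; the class as such was not tested. Adrenomedullin and CGRP act through Calcrl, a Gs-coupled receptor that needs a RAMP protein; RAMP1 makes it a CGRP receptor, and RAMP2 or RAMP3 an adrenomedullin receptor. Adm (ENSMUSG00000030790, chromosome 7, 110627661 to 110629820, plus strand) held 9.80 to 23.9 FPKM with saline (median 19.7) and 1.01 to 7.14 with Ang II (median 3.48). No Ang II library reached the lowest saline library, Saline 4. For Adm the log2 fold change was -2.16 (SE 0.24, limma adjusted p = 5.92e-06), and it lay between -2.49 and -1.81 in 31 other settings. The smallest fall was that with the adipocyte marker score as a covariate.

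Ramp1 (chromosome 1, 91179822 to 91225196, plus strand) held 133 to 275 FPKM with saline (median 161) and 67.3 to 139 with Ang II (median 94.4). In 7 Ang II libraries the level was under the saline minimum, and Ang II 2 (139 FPKM) lay within the saline range. For Ramp1 the log2 fold change was -0.85 (SE 0.16, limma adjusted p = 0.000788). Ramp2 (chromosome 11, 101246028 to 101259546, plus strand), needed for vessel integrity, held 76.0 to 274 FPKM (median 171.5) and 33.6 to 145 FPKM (median 74.8), with 5 Ang II libraries under the saline minimum. The log2 fold change was -0.99 (SE 0.29, limma adjusted p = 0.0131), and the call was lost after quantile normalization (adjusted p = 0.0520) and with the score of macrophages and monocytes in the model (0.130). Of the exon bases of Ramp2 33.41% overlap Vps25 on the same strand, which held 0.809 ± 0.441 and 0.774 ± 0.268 FPKM; the split of reads between them is uncertain. Ramp3 had at most 0.790 FPKM in any library.

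Calcrl itself held 3.04 to 24.9 FPKM with saline (median 16.9) and 4.23 to 17.7 with Ang II (median 11.5). The groups overlapped, and the log2 fold change of -0.34 (SE 0.34) did not pass (limma adjusted p = 0.455). Without Saline 7 and Saline 8 it was -0.70 (adjusted p = 0.0453), and with the endothelial score as a covariate -0.14 (0.609). Calcrl was also called lower with the adipocyte score (-0.91, 0.0393) and with sample weights (0.0152). The same held without Saline 2, Saline 7 and Saline 8 (-0.87, 0.0125). The balance of the partners was not shifted in 1 direction: Ramp1 made up a median of 48.7% of the summed RAMP FPKM with saline (42.3% to 73.5%) and 50.8% with Ang II (38.5% to 80.5%).

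Calcrl, S1pr1, Edn1 and Ramp2, genes known from endothelium, were each lowest, among the libraries of a group, in Ang II 2 and in Saline 8. Ang II 2, with the lowest sum of endothelial markers (287 FPKM), had the lowest Edn1, Ramp2 and Ece1 of all 16 libraries. Saline 8, with 788 FPKM of those markers (the lowest saline sum was 749 FPKM, in Saline 2), had the lowest Calcrl and S1pr1 of all 16. Low values in Saline 8 were not particular to these genes. It also had the lowest saline values of Adra2a (3.78 FPKM), Adra1d (15.4), Htr1b (9.10), Npy1r (21.8) and F2r (9.80). With the endothelial score as a covariate the log2 fold change of Ramp2 was -0.81 and that of Ramp1 -0.90 (limma adjusted p = 0.000649 and 0.000148). Of the markers, Egfl7, Cldn5 and Pecam1 were called lower and Erg higher. The part of endothelial RNA in the falls of Ramp1 and Ramp2 was not tested beyond these covariate values.

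**Figure D4:**
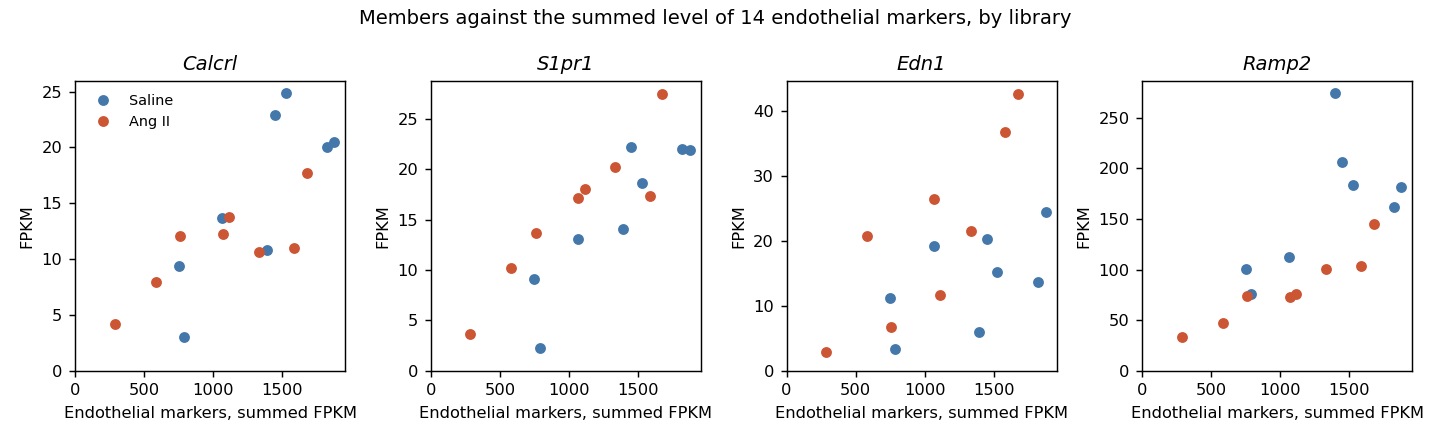
FPKM of Calcrl, S1pr1, Edn1 and Ramp2 in each library against the summed FPKM of 14 endothelial markers. Ang II 2, at 287 FPKM of markers, has the lowest Edn1 and Ramp2, and most Ang II points for Ramp2 lie below saline points of like marker level.

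Among receptors for thrombin and other proteases, F2r rose. It encodes PAR1, the thrombin receptor of endothelium and smooth muscle (ENSMUSG00000048376, chromosome 13, 95601803 to 95618487, minus strand). It held 9.80 to 42.7 FPKM with saline (median 35.0) and 33.0 to 72.6 with Ang II (median 58.1), and 6 of 8 Ang II libraries exceeded the saline maximum. For F2r the log2 fold change was 1.08 (SE 0.28, limma adjusted p = 0.00756). The 3 lowest values were those of Saline 2, Saline 7 and Saline 8 (16.6, 12.9 and 9.80 FPKM), and without these libraries the rise was 0.53 (adjusted p = 0.0192). With the adipocyte score as a covariate it was 0.69 and no longer called (0.0971). F2rl1 (PAR2, opened by trypsin-like proteases) held 2.00 ± 1.33 and 3.80 ± 2.30 FPKM (log2 fold change 0.65, limma adjusted p = 0.167). It was called higher without Ang II 2 (0.0414) and with the endothelial score as a covariate (0.89, 0.000153), and was at 0.04 (0.945) with the adipocyte score and 0.19 (0.702) without Saline 2, Saline 7 and Saline 8. F2rl3 (PAR4) held 1.96 ± 1.59 and 1.12 ± 0.263 FPKM (log2 fold change -0.35, limma adjusted p = 0.230; 0.03 without the same 3 libraries). F2r made up a median of 89.8% of the summed FPKM of the 3 with saline and 92.4% with Ang II.

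No nucleotide receptor was called by limma, and 1 of the 4 tested had an unadjusted p under 0.05 (P2ry2). P2rx1, the ATP-gated channel through which sympathetic nerves contract small arteries, held 39.0 to 73.1 FPKM with saline (median 49.8) and 30.9 to 73.2 with Ang II (median 57.3). The ranges largely overlapped, with 2 Ang II libraries below and 1 above all saline libraries (log2 fold change 0.05, SE 0.19, limma adjusted p = 0.852). P2ry6, the UDP receptor, held 29.9 to 62.0 FPKM (median 38.8) and 25.3 to 49.3 FPKM (median 34.8; limma adjusted p = 0.241). P2ry2, a receptor for ATP and UTP, held 6.49 to 19.3 FPKM (median 13.1) and 12.4 to 24.5 FPKM (median 16.6). Its log2 fold change of 0.47 (SE 0.20) missed the threshold (limma adjusted p = 0.0783) and passed it after median ratio scaling (0.61, adjusted p = 0.0319), without Saline 5 (0.0336) and with the endothelial score as a covariate (0.00388). The value was 0.05 (0.824) with the adipocyte score and 0.22 (0.375) without Saline 2, Saline 7 and Saline 8. P2ry14, a UDP-sugar receptor, ran from 0.169 to 1.12 FPKM with saline (median 0.424) and 0.305 to 0.798 with Ang II (median 0.570; limma adjusted p = 0.621). P2ry1, an ADP receptor, held 0.498 ± 0.253 and 0.290 ± 0.156 FPKM, under the filter.

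Of the adenosine receptors, the Gi-coupled Adora1 fell from 1.46 ± 0.378 to 0.860 ± 0.168 FPKM. Its range was 0.9997 to 2.00 FPKM with saline (median 1.34) and 0.6003 to 1.07 with Ang II (median 0.840), and 5 of 8 Ang II libraries were under the saline minimum. The log2 fold change was -0.39 (SE 0.11, limma adjusted p = 0.0118), and -0.75 with voom on the recovered reads. With the score of macrophages and monocytes in the model the call was lost (0.0579). Antisense Mybph covers 20.09% of its exon bases and held 0.0124 ± 0.0350 FPKM with saline and none with Ang II. Adora2a, the Gs-coupled relaxing receptor, held 0.709 to 3.35 FPKM with saline (median 1.28) and 0.440 to 1.27 with Ang II (median 0.857) and did not pass (limma adjusted p = 0.129). Adora2b held 0.505 ± 0.190 and 0.660 ± 0.334 FPKM (limma adjusted p = 0.462). Its share of the 3 had a median of 15.2% with saline and 26.3% with Ang II, with overlapping ranges.

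None of the 6 lysophospholipid receptors was called by limma, and 1 had an unadjusted p under 0.05 (S1pr3), which voom on the recovered reads called lower. S1pr1, the endothelial S1P receptor, held 2.23 to 22.2 FPKM with saline (median 16.4) and 3.68 to 27.5 with Ang II (median 17.2; log2 fold change 0.10, SE 0.40, limma adjusted p = 0.861; -0.41 without Saline 2, Saline 7 and Saline 8). S1pr2, which couples to the RhoA arm in smooth muscle, held 1.71 to 4.16 FPKM (median 3.61) and 1.99 to 6.21 FPKM (median 3.92; limma adjusted p = 0.397). S1pr3 held 0.404 to 2.99 FPKM (median 1.55) and 0.248 to 2.20 FPKM (median 0.566), which gave a log2 fold change of -0.54 (SE 0.22) and missed the threshold (limma adjusted p = 0.0588). It was called lower without Ang II 1 (adjusted p = 0.0144), whose 2.20 FPKM stood above the other 7 Ang II libraries, also without Saline 7 (0.0202), and without Saline 7 and Saline 8 (0.0313). Lpar1, a receptor for lysophosphatidic acid, held 0.932 to 3.13 FPKM (median 1.52) and 0.742 to 2.99 FPKM (median 1.60; limma adjusted p = 0.911). Lpar4 and Lpar6 had log2 fold changes of 0.09 and -0.16.

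Among the remaining receptors, Npy1r alone had a group mean above 2 FPKM. The Y1 receptor of neuropeptide Y, which strengthens sympathetic constriction, held 21.8 to 46.9 FPKM with saline (median 35.0) and 22.6 to 55.2 with Ang II (median 27.7; limma adjusted p = 0.325). Of 31 other settings 1 called Npy1r lower, that with sample weights (log2 fold change -0.44, adjusted p = 0.0234). Bdkrb2, the constitutive bradykinin receptor, held 0.877 ± 0.615 and 0.577 ± 0.332 FPKM (limma adjusted p = 0.341), and Chrm3, the endothelial muscarinic receptor, 1.13 ± 0.870 and 0.638 ± 0.334 FPKM (limma adjusted p = 0.368). Chrm3 was called lower without Saline 7 and Saline 8 (log2 fold change -0.55, adjusted p = 0.0442). Avpr1a, the constrictor vasopressin receptor, held 0.374 ± 0.200 and 0.231 ± 0.134 FPKM, under the filter. Bdkrb1, the bradykinin receptor known to appear on injury, held 0 to 0.349 FPKM with saline and 0 to 2.64 with Ang II, the highest value again being that of Ang II 1. Hrh1, Hrh2 and Chrm2 had group means of at most 0.126 FPKM. Tacr1, the substance P receptor, had no read in any of the 16 libraries, and its expression was not detectable at this depth.

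The counts by G protein stand beside 9.54% of all tested genes called higher and 24.9% lower. Among 9 tested Gq-coupled receptors 1 rose (Adra1b) and 2 fell (Ednra and Adra1d). Of 7 tested Gi-coupled receptors 1 rose (Htr1b) and 2 fell (Adra2a and Adora1). None of the 4 tested Gs-coupled receptors was called, with a median log2 fold change of -0.36. None of these 4 had an unadjusted limma p under 0.05. With the endothelial score as a covariate Adora2a and Adrb3 were called lower (log2 fold changes -0.46 and -0.71, adjusted p = 0.0282 and 0.0446). With the adipocyte score the values were -0.08 and 0.14 (0.797 and 0.639), and Adora2a was at -0.07 without Saline 2, Saline 7 and Saline 8. Calcrl was called lower without Saline 7 and Saline 8, with sample weights and with the adipocyte score (-0.91, adjusted p = 0.0393). These are small numbers and differences between the coupling classes were not tested.

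The share of a class held by 1 gene is a description, with no test, and the saline and Ang II ranges overlapped for every gene and class computed. Among adrenoceptors as a whole Adra2a held a median of 21.8% with saline and 8.99% with Ang II, and Adra1d 66.1% and 77.2%.

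**Figure D5:**
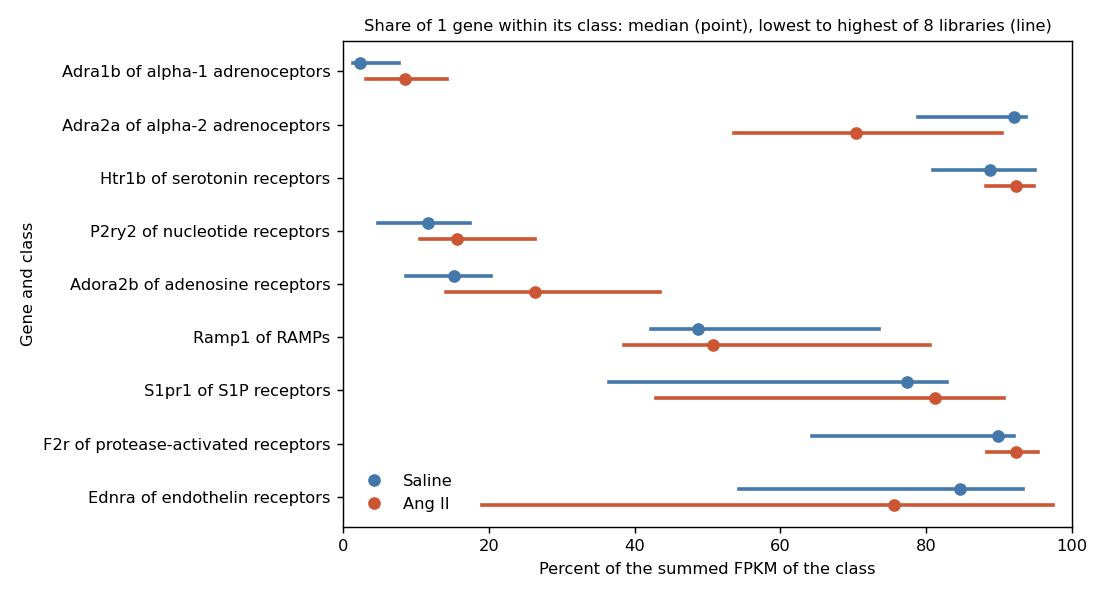
Percent of the summed FPKM of a class held by 1 of its genes, as the median (point) and the lowest to highest of 8 libraries (line). The saline and Ang II ranges overlap in all 9 rows, with the median of Adra2a among alpha-2 receptors at 92.0% with saline and 70.4% with Ang II.

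Genes that act on either side of these receptors are given by list. Counts without rescaling are to be read against 9.54% of all tested genes called higher and 24.9% lower. Those after median ratio scaling stand against 2235 higher and 2113 lower of 15007 genes. Those after quantile normalization stand against 2270 higher and 2374 lower. For the making and clearing of ligands, 6 of 22 tested genes rose and 7 fell (median log2 fold change -0.003), and 6 and 5 after median ratio scaling, 6 and 4 after quantile normalization. Sphk1, a kinase that makes S1P, rose from 9.30 ± 5.93 to 29.4 ± 7.49 FPKM (log2 fold change 1.72, limma adjusted p = 0.000168). Spns2, which exports S1P, rose from 5.22 ± 3.41 to 12.0 ± 3.16 FPKM. The groups did not overlap for Sphk1. Sphk2, the other kinase that makes S1P, fell from 16.95 ± 4.06 to 10.43 ± 1.81 FPKM (limma adjusted p = 0.00341). Sgpl1, which breaks S1P down, rose from 17.8 ± 4.08 to 26.2 ± 4.44 FPKM (limma adjusted p = 0.00714). Entpd2, an enzyme that breaks down extracellular ATP, fell from 7.90 ± 1.73 to 2.66 ± 1.21 FPKM (limma adjusted p = 4.2e-05) and Slc22a3, a transporter that clears monoamines, from 1.93 ± 1.13 to 0.362 ± 0.327 FPKM. Neither Th nor Dbh, which make noradrenaline, passed the filter.

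Of 14 G protein alpha subunit and phospholipase C beta genes, Gnao1 alone was called. It encodes a Gi-class subunit and fell from 35.5 ± 4.15 to 18.4 ± 3.29 FPKM (log2 fold change -0.93, limma adjusted p = 1.93e-05), with no overlap. In the arm of IP3 receptors, protein kinase C and RhoA 7 of 18 genes fell and 1 rose (median -0.30), and 5 fell and 3 rose with median ratio scaling. Ppp1r14a (CPI-17), which inhibits myosin phosphatase, fell from 996 ± 390 to 402 ± 104 FPKM and Ppp1r12a, the targeting subunit of that phosphatase, from 491 ± 93.4 to 221 ± 44.0 FPKM. Prkca (protein kinase C alpha) rose from 5.90 ± 2.09 to 10.4 ± 2.03 FPKM.

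In the adenylyl cyclase and protein kinase A arm 4 of 18 tested genes fell (median 0.01), and median ratio scaling left 2 lower and 1 higher. Adcy5, an adenylyl cyclase of smooth muscle, fell from 436 ± 96.2 to 218 ± 41.1 FPKM without overlap, and Rapgef3 (EPAC1), a cyclic AMP sensor, from 13.7 ± 2.73 to 7.85 ± 2.57 FPKM. Of 7 receptor kinases and arrestins, which switch receptors off, Grk5 rose from 10.2 ± 2.41 to 20.0 ± 5.80 FPKM and Grk2 fell from 80.6 ± 18.9 to 60.3 ± 4.36 FPKM, a call lost after median ratio scaling and after quantile normalization. The groups did not overlap for Grk5.

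Of 39 further vasoactive receptor and peptide genes 6 passed the filter, of which 1 rose and 3 fell (median log2 fold change -0.44). P2rx7, an ATP-gated channel of leukocytes, rose from 8.30 ± 1.47 to 10.7 ± 1.67 FPKM (limma adjusted p = 0.0364). Its call was lost without any 1 of Saline 1, Saline 5, Saline 7, Saline 8, Ang II 1, Ang II 3, Ang II 4, Ang II 5, Ang II 6 or Ang II 7. The 3 falls were lost with the score of macrophages and monocytes in the model. S1pr4, an S1P receptor of leukocytes, fell from 2.86 ± 0.829 to 1.33 ± 0.709 FPKM. Vipr2 and Vipr1, Gs-coupled relaxing receptors for vasoactive intestinal peptide, fell from 2.94 ± 1.39 to 1.24 ± 0.605 and from 19.3 ± 7.41 to 9.69 ± 4.96 FPKM.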

How the data were processed

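RNA-seq values came as FPKM (fragments per kilobase of transcript, scaled to library size), 1 deposited column per library, made by the authors on GRCm38 (the build in the submitters' processing notes). Which aligner and counter were run, and whether by strand, is not given in the sources used here. Of the gene IDs 99.93% were in GENCODE M21. Limma 3.58.1 (R 4.3.3), with an intensity trend, was fitted on log2(FPKM + 1) of the 15007 genes with a mean of at least 0.5 FPKM over the 16 libraries, with p adjusted by Benjamini-Hochberg and called under 0.05. Whole reads were recovered from FPKM and gene length: 96.3% to 97.0% of values below 300 reads were whole within 0.02 in each library. Limma voom on 14338 genes with such reads was an alternative. No pair of libraries within a group agreed within sampling noise (chi-square per degree of freedom of at least 21.2 over 56 pairs). Fits were checked on simulated data. The members and lists were chosen with earlier results of these data known. Members past the threshold with a mean of at least 2 FPKM in the higher group, and a set of main receptors with a mean of at least 0.5 FPKM, were described in full. Up to 2 genes that rose and 2 that fell, by the smallest adjusted p, were named from each pathway list. Vipr1, Sphk2 and Sgpl1 were added after their values were seen. Marker scores for adipocytes, endothelium, macrophages and fibroblasts served as covariates. Of the other marker lists, called counts were 0 of 4 (T and B cell), 1 of 3 (Schwann cell), 3 of 5 (pericyte), 0 of 1 (mast cell), 0 of 5 (platelet), 1 of 4 (cardiomyocyte), 0 of 4 (skeletal muscle) and 0 of 5 (erythroid), and 1 of 10 for fibroblasts.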

Additional observations from a re-analysis of the deposited data

Results flagged for a closer look

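In 3 of 67 groups of 8 libraries, a single library stood apart from the other 7 by Dixon's criterion, and chance alone gives about 1 in 20. Npy1r was 55.2 FPKM in Ang II 8, where the next Ang II library held 32.5 FPKM. Adora2b was 0.929 FPKM in Saline 6, where the next saline library held 0.555 FPKM. S1pr3 was 2.20 FPKM in Ang II 1, where the next Ang II library held 0.908 FPKM.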

How the results depend on the processing

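Over 31 other settings no member reversed a call: 1002 values for single members kept their side of the threshold, 17 lost the call and 28 gained it. Adm, Adra2a, Ednra, Ramp1 and Htr1b were called in all 31. These settings refit the same 16 libraries, and 16 of them each leave out 1 library, so they are not separate lines of support. Against 3 members called higher and 7 lower, the endothelial score as a covariate gave 6 higher. Counts of lower members were 12 with sample weights, 4 with the score of macrophages and monocytes in the model, 11 without Saline 7 and Saline 8, and 11 without Saline 2, Saline 7 and Saline 8, a setting chosen after seeing the data, as was voom on recovered reads. The counts over all genes, 1431 higher and 3741 lower, moved as well. The endothelial score gave 2080 higher. Lower genes were 5050 with sample weights and 2215 with the score of macrophages and monocytes. They were 3969 without Saline 7 and Saline 8 and 3929 without Saline 2 as well. The cause was not tested. Leaving out 1 library at a time gave 3 to 4 members higher and 6 to 7 lower. Same-numbered libraries did not all deviate together (correlations -0.246 to 0.385, over 0.1 in 5 of 8 pairs, and 5 of 16 libraries correlated best with their own number), so they were analysed as sharing only a number. The labels do not say what a number marks. Whether some numbers mark pairs was not tested, and these correlations do not settle it. With the replicate block 4 members were higher and 8 lower, P2ry2 and S1pr3 being added (adjusted p = 0.00937 and 0.0419). Over all genes that fit called 1414 higher and 3531 lower. Receptors under 1 FPKM rest on few reads, and a change in them may not have been detectable at this depth.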

Other observations

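Ang II 1 held the highest sums of platelet and mast cell markers. Platelet markers summed to 167.5 FPKM there, against 6.95 to 44.9 FPKM in the other 15 libraries, and mast cell markers to 11.2 FPKM, against 0.124 to 4.09 FPKM. Pf4 alone gave 147.3 FPKM of the platelet sum. The Ang II maxima of Itga2b, Gp1ba and Gp9 (6.089, 1.08 and 3.085 FPKM) lay below the saline maxima (14.4, 1.438 and 4.74). That of Ppbp lay above (12.99 against 9.447). In Ang II 1 macrophage and monocyte markers also had their highest sum (777 FPKM, with 739 FPKM in Saline 1). The same library had the highest Ednrb (2.56 FPKM) and Bdkrb1 (2.64 FPKM) of all 16.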
